A study of Mus musculus with 8 samples.

Results

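The osteoclast differentiation genes described here are 10 mouse genes, chosen by name: Tnfrsf11a, Oscar, Nfatc1, Dcstamp, Ocstamp, Atp6v0d2, Acp5, Mmp9, Car2 and Calcr. Each matched 1 row of a count table of 55450 genes through GENCODE release M21, so all 10 of 10 were found. The table came from RAW264.7, a mouse line of macrophage type that is known to form osteoclasts when it is given the cytokine RANKL, and no RANKL treatment is named in the labels. All cells were grown for 4 days in serum-containing medium, and carried either a non-silencing hairpin (shNS) or a hairpin against the exoribonuclease gene Dis3l2 (shDis3l2). Total RNA was sequenced from 3 shNS and 3 shDis3l2 libraries of cells given 1 µg/mL doxycycline, and from 1 library of each line without it. The labels do not say whether the replicates were separate cultures, or whether each line was 1 clone, so p-values measure only the spread between these libraries, which may be technical.

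Osteoclasts are the bone-resorbing cells of the monocyte and macrophage lineage. RANKL binds the receptor RANK, encoded by Tnfrsf11a, and signals through TRAF6 to NF-kB, MAP kinases and AP-1. Immunoreceptors that pair with ITAM adaptors, OSCAR among them, add a calcium signal, and both inputs lead to the transcription factor NFATc1. NFATc1 is known to activate genes for cell fusion (Dcstamp, Ocstamp, Atp6v0d2) and for resorption (Acp5, and others that make acid and proteases), while the calcitonin receptor gene Calcr marks mature cells.

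Library totals ran from 30341847 to 45557831 expected counts, with 17388 to 18267 genes detected. Dis3l2, the targeted gene, had 33.0, 28.7 and 22.0 CPM (counts scaled to the library total, here by edgeR's TMM method) in the shNS doxycycline libraries and 12.0, 13.5 and 14.9 CPM in the shDis3l2 ones. This fall had a log2 fold change of -1.05 (SE 0.19, edgeR adjusted p = 0.0216), and without doxycycline the lines had 29.7 and 28.6 CPM. The fall did not pass when any 1 shDis3l2 library was left out (edgeR adjusted p = 0.0814, 0.112 and 0.0776 without replicates 1, 2 and 3). All 10 macrophage markers listed were detected, with a summed level of 6504 to 11961 CPM. Markers of other cells were low: lymphocyte markers summed to 0.0293 to 0.259 CPM with 3 of 8 at 0 in all libraries, dendritic cell markers to 1.70 to 4.16 CPM with 0 of 6 at 0, and osteoblast and stromal markers to 0.407 to 9.33 CPM with 4 of 9 at 0. Granulocyte markers summed to 0 to 41.0 CPM with 3 of 7 at 0. Their high values were in shNS replicate 2 and untreated shNS, where S100a8 had 19.1 and 40.9 CPM. The other 6 libraries had at most 0.403 CPM of S100a8. Runx2, from the osteoblast list, split the shNS libraries the other way, with 6.39 and 8.58 CPM in replicates 1 and 3, 0.176 CPM in replicate 2 and 0.357 CPM in untreated shNS. shNS replicate 2 and untreated shNS thus stood apart from shNS replicates 1 and 3, also in Itgb3, Car2 and Dcstamp below, and the labels do not say whether the shNS libraries came from the same culture. Means over shNS and doxycycline effects in shNS rest on libraries that differ in this way. The part of these markers in the results on the osteoclast genes was not tested.

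Promoter sequences from RefSeq (build GRCm38.p6) are described for 4 of the 10 genes, Tnfrsf11a, Acp5, Oscar and Calcr. Nfatc1 was not searched, so 4 of 10 is not a rate of matching. Dcstamp, Ocstamp, Mmp9, Car2 and Atp6v0d2 were looked up and had no window among the sequences available. The runs below cover 250 to 21 bases before an annotated start, 5′ to 3′ on the gene's strand. They are shown because they put the promoter of an abundantly detected receptor gene beside that of a nearly silent immunoreceptor gene and that of the enzyme gene Acp5, each detected at a different level in the same cells. Capitals mark GGAAA, the NFAT core, and GAGGAA, the PU.1 core, read on either strand, so that TTTCC and TTCCTC are the same motifs on the other strand.
Tnfrsf11a, chr1:105780473-105780702, plus strand: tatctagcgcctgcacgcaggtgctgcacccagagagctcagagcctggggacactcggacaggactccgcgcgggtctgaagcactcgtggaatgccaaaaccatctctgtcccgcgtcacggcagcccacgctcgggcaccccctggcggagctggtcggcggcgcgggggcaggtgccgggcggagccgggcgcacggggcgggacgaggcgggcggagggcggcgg
Oscar, chr7:3616178-3616407, minus strand: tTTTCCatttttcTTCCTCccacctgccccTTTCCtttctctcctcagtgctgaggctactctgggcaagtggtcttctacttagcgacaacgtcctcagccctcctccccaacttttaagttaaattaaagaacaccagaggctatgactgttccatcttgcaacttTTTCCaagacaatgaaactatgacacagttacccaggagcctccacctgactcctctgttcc
Acp5, chr9:22130619-22130848, minus strand: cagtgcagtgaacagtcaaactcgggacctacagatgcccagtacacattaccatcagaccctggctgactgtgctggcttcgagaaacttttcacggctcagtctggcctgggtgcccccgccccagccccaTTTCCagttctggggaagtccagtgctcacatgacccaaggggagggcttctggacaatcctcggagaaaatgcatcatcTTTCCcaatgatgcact
The Tnfrsf11a window had a GC content of 73.5%, higher than in 94.8% of 32851 windows of the same length, whose median was 51.7%. It held 0 matches to either motif in capitals. The same was true of a Calcr window, chr6:3763644-3763873, with a GC content of 72.6%, and Calcr had 0 counts in every library. The other Calcr window, chr6:3764734-3764963, had a GC content of 47.8% and held 1 NFAT core, at 65 bases, and 0 PU.1 cores. The Oscar window held 3 NFAT cores, at 249, 220 and 82 bases before the start, and 1 PU.1 core at 237 bases. Acp5 had 3 windows, for 3 annotated starts. The one printed lies inside the annotated gene span, at its most downstream start, and was picked after the matches were seen. It held 2 NFAT cores, at 117 and 37 bases before that start, and the other windows, chr9:22135767-22135996 and chr9:22131886-22132115, held 1 each, at 167 and 41 bases. Of all windows, 52.6% held the NFAT core and 21.3% the PU.1 core, and the pair can overlap by shared letters. The AP-1 motif (TGANTCA) was in 6.34% of all windows and the E-box of the MITF family (CACGTG) in 5.35%, both strands read. The 3 printed windows held 0 of either. A match is a run of letters and not a binding site.

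At the top of the pathway, Tnfrsf11a (chr1:105780718-105847981, GRCm38, plus strand) had 88.8, 132 and 281 CPM in shNS replicates 1, 2 and 3 with doxycycline. It had 180, 192 and 215 CPM in the shDis3l2 libraries. The shDis3l2 values were close together and all lay inside the range of the shNS values. The group means were 167 ± 101 and 196 ± 17.5 CPM (SD, n = 3 each), and the log2 difference was 0.23 (SE 0.39, edgeR adjusted p = 0.808). Without doxycycline the lines had 159 CPM (shNS) and 180 CPM (shDis3l2), which sets shDis3l2 at 1.13 times shNS, with a 95% counting interval of 1.10 to 1.17. Counting intervals cover counting error only, and the lone libraries give no replicate check. RANK transcripts were thus between 88.8 and 281 CPM in all 8 libraries.

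Oscar (chr7:3609813-3616157, minus strand), the collagen-binding immunoreceptor gene, had 1 count in each of shNS replicate 3, shDis3l2 replicate 1 and untreated shDis3l2, and 0 counts in the other 5 libraries. In those 5 libraries, 0 counts allow a level of up to 0.0824 to 0.0945 CPM. Its promoter, shown above with 3 NFAT cores, thus belonged to a gene at or near the limit of detection in every group. It did not pass the low-count filter and was not tested.

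Nfatc1 (chr18:80606205-80713071, minus strand), the transcription factor gene at the centre of the programme, had 131, 70.4 and 126 CPM in the shNS doxycycline libraries. In the shDis3l2 doxycycline libraries it had 129, 230 and 248 CPM. Replicates 2 and 3 of shDis3l2 lay above all shNS libraries, and replicate 1 of shDis3l2 lay just under the highest shNS value, so the groups overlapped. The means were 109 ± 33.6 and 202 ± 64.6 CPM (SD, n = 3 each), with a log2 fold change of 0.89 (SE 0.32, edgeR adjusted p = 0.176). The untreated pair was farther apart, at 79.4 CPM in shNS and 371 CPM in shDis3l2, which sets shDis3l2 at 4.67 times shNS (95% counting interval 4.49 to 4.86). The untreated shDis3l2 library was the highest of all 8 for this gene. The Nfatc1 promoter was left out of the promoter search beforehand, so its absence there is not a failed match.

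**Figure D1:**
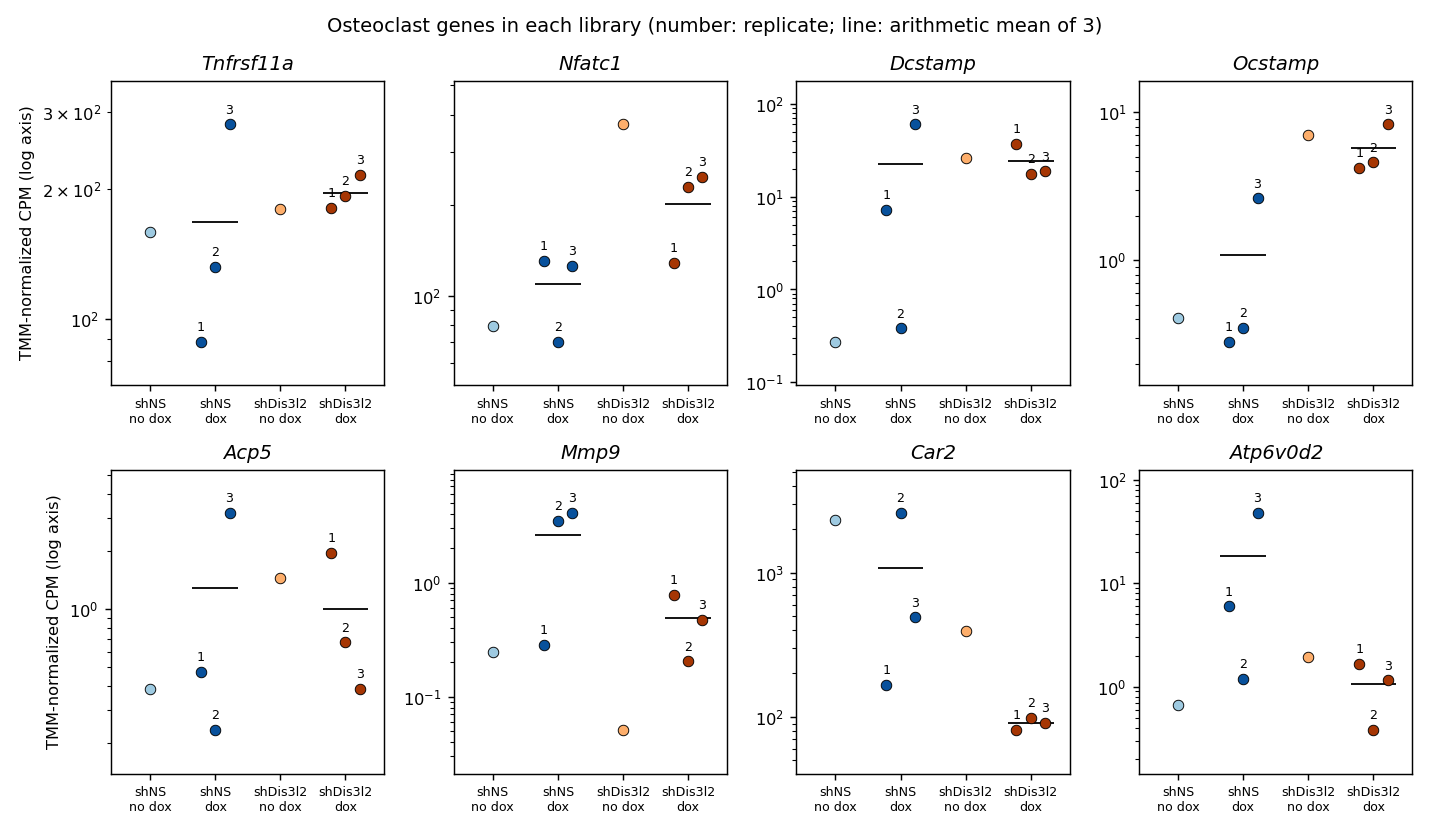
Levels of the 8 detected osteoclast genes in each library, as TMM-normalized CPM on log axes that differ between panels. Points are libraries, numbers are replicates and lines are arithmetic means of the 3 doxycycline libraries. Among the 3 shNS doxycycline points the spread is widest for Dcstamp, Atp6v0d2 and Car2, while the 3 shDis3l2 doxycycline points of Car2 lie between 80.8 and 99.0 CPM.

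Among the fusion genes, Dcstamp (chr15:39745930-39760938, plus strand), which encodes a multi-pass membrane protein needed for precursor fusion, varied most within shNS. It had 7.12, 0.380 and 59.7 CPM in shNS replicates 1, 2 and 3, from 226, 13 and 2074 counts. The shDis3l2 doxycycline libraries had 37.1, 17.4 and 18.6 CPM, all inside the shNS range. The difference on the log2 scale was 0.13 (SE 1.38, edgeR adjusted p = 0.977). Untreated shNS had 0.275 CPM, from 10 counts, and untreated shDis3l2 had 26.1 CPM, from 1026 counts, which sets shDis3l2 at 95 times shNS (95% counting interval 51.4 to 199). Dcstamp was therefore low in shNS replicate 2 and in untreated shNS, and above 7 CPM in the other 6 libraries.

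Ocstamp (chr2:165393760-165400405, minus strand), a related membrane protein gene also needed for fusion, was low in all shNS libraries. It had 0.283, 0.351 and 2.62 CPM in the shNS doxycycline libraries and 4.23, 4.58 and 8.27 CPM in the shDis3l2 ones, and the groups did not overlap. The means were 1.08 ± 1.33 and 5.70 ± 2.24 CPM (SD, n = 3 each), with a log2 fold change of 2.39 (SE 0.86, edgeR adjusted p = 0.174). The two-sided exact permutation p was 0.1, which is the smallest that 3 against 3 libraries can give. Without doxycycline the values were 0.412 CPM in shNS and 7.02 CPM in shDis3l2, which sets shDis3l2 at 17.0 times shNS (95% counting interval 10.1 to 30.9). All 4 shDis3l2 libraries thus had more Ocstamp than any of the 4 shNS libraries, and without shNS replicate 3 the fold change was 4.14 on the log2 scale (edgeR adjusted p = 0.0118). Ocstamp passed in only 1 of 6 fits with a library left out, and the highest edgeR adjusted p of these fits was 0.395.

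Atp6v0d2 (chr4:19876841-19922605, minus strand) encodes the d2 subunit of the vacuolar proton pump, known for a role in fusion as well as in acid transport. It had 5.98, 1.20 and 47.6 CPM in the shNS doxycycline libraries and 1.67, 0.379 and 1.15 CPM in the shDis3l2 ones. The highest shDis3l2 value lay above shNS replicate 2 only, so the groups overlapped. The difference on the log2 scale was -4.07 (SE 1.42, edgeR adjusted p = 0.178). Leaving out shNS replicate 2 gave an adjusted p of 0.0382, and leaving out shNS replicate 3, the library with the highest value, gave -1.74 on the log2 scale (edgeR adjusted p = 0.304). Without doxycycline the order was the other way, 0.659 CPM in shNS and 1.93 CPM in shDis3l2, which sets shDis3l2 at 2.93 times shNS (95% counting interval 1.83 to 4.85).

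The resorption genes had no common pattern. Acp5 (chr9:22126727-22135711, minus strand), the gene of tartrate-resistant acid phosphatase, had 0.472, 0.234 and 3.17 CPM in the shNS doxycycline libraries and 1.97, 0.671 and 0.384 CPM in the shDis3l2 ones. These levels were low in every library, and the shDis3l2 values lay inside the shNS range. On the log2 scale the difference was -0.34 (SE 1.02, edgeR adjusted p = 0.901), and its sign depended on the libraries and tool used. Untreated shNS had 0.384 CPM and untreated shDis3l2 1.45 CPM, which sets shDis3l2 at 3.77 times shNS (95% counting interval 2.07 to 7.32). An antisense gene, 6530413G14Rik, overlaps Acp5 and had at most 19 counts in a library, and the strand setting of the counting is not given in the sources used here. Within 1 Mb of Acp5, 1 of 47 other tested genes rose and 0 fell.

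Mmp9 (chr2:164940780-164955850, plus strand), the gene of a gelatinase secreted by osteoclasts and by inflammatory macrophages, had 0.283, 3.45 and 4.06 CPM in the shNS doxycycline libraries. It had 0.777, 0.204 and 0.473 CPM in the shDis3l2 ones. Replicates 2 and 3 of shNS lay above all shDis3l2 libraries, and replicate 1 of shNS lay among them. On the log2 scale the difference was -2.39 (SE 0.93, edgeR adjusted p = 0.205), and without shNS replicate 1 the adjusted p was 0.0257. Mmp9 passed in only 1 of 6 fits with a library left out, and the highest edgeR adjusted p of these fits was 0.489. Untreated shNS had 9 counts and untreated shDis3l2 2 counts, a shDis3l2 over shNS ratio of 0.206 with a 95% counting interval of 0.0216 to 0.994.

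Car2 (chr3:14886273-14900770, plus strand), the gene of carbonic anhydrase II, which supplies protons for acid secretion, had 168, 2576 and 489 CPM in shNS replicates 1, 2 and 3 with doxycycline. In shDis3l2 it had 80.8, 99.0 and 90.7 CPM, so the groups did not overlap. The shNS values spread widely and the shDis3l2 values hardly at all. The means were 1078 ± 1308 and 90.2 ± 9.08 CPM (SD, n = 3 each), and the log2 difference was -3.58 (SE 1.02, edgeR adjusted p = 0.113, two-sided exact permutation p = 0.1). Without shNS replicate 2, the highest library, the log2 fold change was -1.86 with an adjusted p of 0.0411, and without shNS replicate 1, the lowest of the shNS libraries, the adjusted p was 0.0368. Car2 passed in only these 2 of 6 fits with a library left out, and the highest edgeR adjusted p of the 6 was 0.367. Untreated cells had 2298 CPM in shNS and 396 CPM in shDis3l2, which sets shDis3l2 at 0.172 times shNS (95% counting interval 0.169 to 0.175). The highest Car2 values were thus in shNS replicate 2 and untreated shNS, where S100a8 was also highest and Dcstamp lowest.

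Calcr (chr6:3685680-3764714, minus strand), the calcitonin receptor gene, had 0 counts in all 8 libraries, which allows a level of up to 0.0686 to 0.0945 CPM. It was not tested. The microRNA genes Mir653 and Mir489, which lie inside it on the same strand, also had 0 counts.

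Set against each other per kilobase of annotated exon, the mean levels in the shDis3l2 doxycycline libraries ran from Car2 at 37.2 CPM per kb through Tnfrsf11a at 32.7, Nfatc1 at 27.1, Dcstamp at 9.14 and Ocstamp at 1.56 to Acp5 at 0.496, Atp6v0d2 at 0.393 and Mmp9 at 0.137 CPM per kb. Over the 3 libraries the range of Car2 overlapped that of Tnfrsf11a, Tnfrsf11a that of Nfatc1, Acp5 that of Atp6v0d2 and Atp6v0d2 that of Mmp9. The other neighbours in this order, from Nfatc1 to Dcstamp to Ocstamp to Acp5, did not overlap. In the shNS doxycycline libraries the order was Car2 at 445 CPM per kb, Tnfrsf11a at 27.9, Nfatc1 at 14.6, Dcstamp at 8.41, Atp6v0d2 at 6.72, Mmp9 at 0.734, Acp5 at 0.636 and Ocstamp at 0.297 CPM per kb. There Car2 lay above Tnfrsf11a in every library, and each later gene overlapped the next one in the order.

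With doxycycline, 0 of the 8 genes in the fit passed edgeR's quasi-likelihood test between the lines, where 6.14% of 13752 genes passed (293 rose and 552 fell). At an unadjusted p under 0.05 edgeR counted 5 of the 8, and 2864 of all genes. DESeq2 called 5 of the 8 against a background of 12.8%: Ocstamp (adjusted p = 0.0128) and Nfatc1 (0.0460) higher in shDis3l2, and Car2 (0.00548), Atp6v0d2 (0.0239) and Mmp9 (0.0370) lower. limma-voom called 0. Leaving out shNS replicate 1 let edgeR call Mmp9 and Car2 (background 8.24%), leaving out shNS replicate 2 let it call Car2 and Atp6v0d2 (background 6.45%), and leaving out shNS replicate 3 let it call Ocstamp (background 5.57%). Leaving out any 1 of the shDis3l2 libraries gave 0 calls among the 8. Over all 6 leave-out fits, 74 to 504 genes were called higher and 129 to 653 lower. The share of all genes is not given for the shDis3l2 leave-outs or for limma-voom, so their counts of 0 are not read as particular to the 8.

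Fold changes were positive for 4 genes (Tnfrsf11a, Nfatc1, Dcstamp, Ocstamp) and negative for 4 (Acp5, Mmp9, Car2, Atp6v0d2), with a median of -0.10 on the log2 scale beside -0.00 for all genes. The groups did not overlap for 2 of the 8, Ocstamp and Car2, a share near the 27.7% of all genes. Without doxycycline, 7 of the 8 differed at least 2-fold between the lone libraries, 5 higher and 2 lower in shDis3l2, where 20.7% of 15250 genes did. Only Tnfrsf11a was under 2-fold there. The untreated shNS library is 1 of the 2 shNS libraries that stood apart in S100a8, Itgb3, Car2 and Dcstamp. Mmp9 is among the 7 on 9 counts in untreated shNS and 2 counts in untreated shDis3l2. Untreated shNS also had only 10 counts of Dcstamp, 14 of Acp5, 15 of Ocstamp and 24 of Atp6v0d2, beside 2892 of Nfatc1 and 83688 of Car2. The share of 20.7% is over all genes and not genes of like level. In bulk RNA, a change in the number of cells that express a gene and a change in RNA per cell cannot be told apart.

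**Figure D2:**
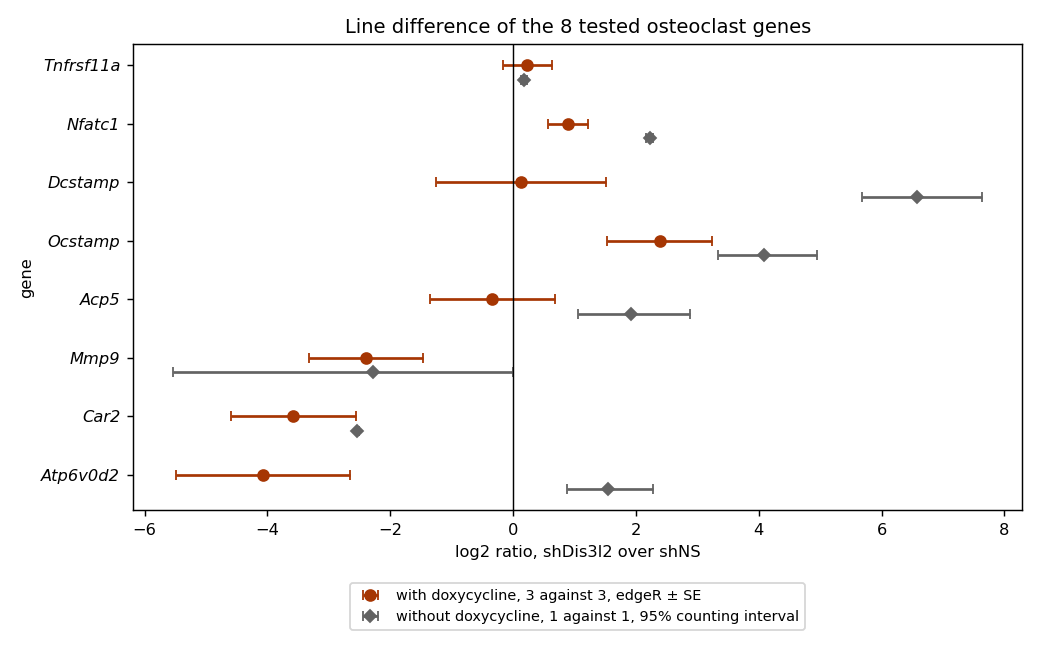
Log2 ratio of shDis3l2 over shNS for the 8 tested genes. Circles are edgeR log2 fold changes with doxycycline and bars their SE (3 libraries against 3), and diamonds are ratios of the 2 untreated libraries with 95% counting intervals. Acp5 and Atp6v0d2 have circles below 0 and diamonds above it.

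Most of these genes spread widely among the shNS doxycycline libraries and less among the shDis3l2 ones. On log2 CPM with a prior count of 2, the highest shNS doxycycline library exceeded the lowest by 137-fold for Dcstamp, 37.9-fold for Atp6v0d2, 15.4-fold for Car2, 12.1-fold for Mmp9, 11.1-fold for Acp5 and 7.89-fold for Ocstamp. Tnfrsf11a and Nfatc1 had ranges of 3.16-fold and 1.86-fold. So 6 of the 8 spanned at least 4-fold within shNS, where 6.15% of all genes did. The lowest counts among these libraries were 8 for Acp5, 9 for Ocstamp and Mmp9, 13 for Dcstamp, 41 for Atp6v0d2 and 5325 for Car2. The share is over all tested genes and not genes of like level, and the osteoclast genes were chosen with earlier results of these data known. Within shDis3l2 the range was 4.60-fold for Acp5 and at most 3.97-fold for the other 7, so 1 of the 8 spanned at least 4-fold, where 1.79% of all genes did. The median range of the 8 was 11.6-fold in shNS and 2.04-fold in shDis3l2, beside 1.42-fold and 1.30-fold for all genes.

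The range was wider in shNS than in shDis3l2 for 7 of the 8, the exception being Nfatc1, and for 63.5% of all genes. Among the shNS doxycycline libraries, replicate 3 was the highest for 6 of the 8, and for 34.2% of all genes. It was not the highest for Nfatc1 and Car2. Dcstamp, Ocstamp, Atp6v0d2, Acp5, Mmp9 and Tnfrsf11a thus had their shNS maximum in 1 library. Profiles centred on each gene's mean over the 8 libraries were nearest for Tnfrsf11a and Nfatc1, with a root mean square difference of 0.76 on the log2 scale. They were farthest apart for Dcstamp and Car2, at 4.33.

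**Figure D3:**
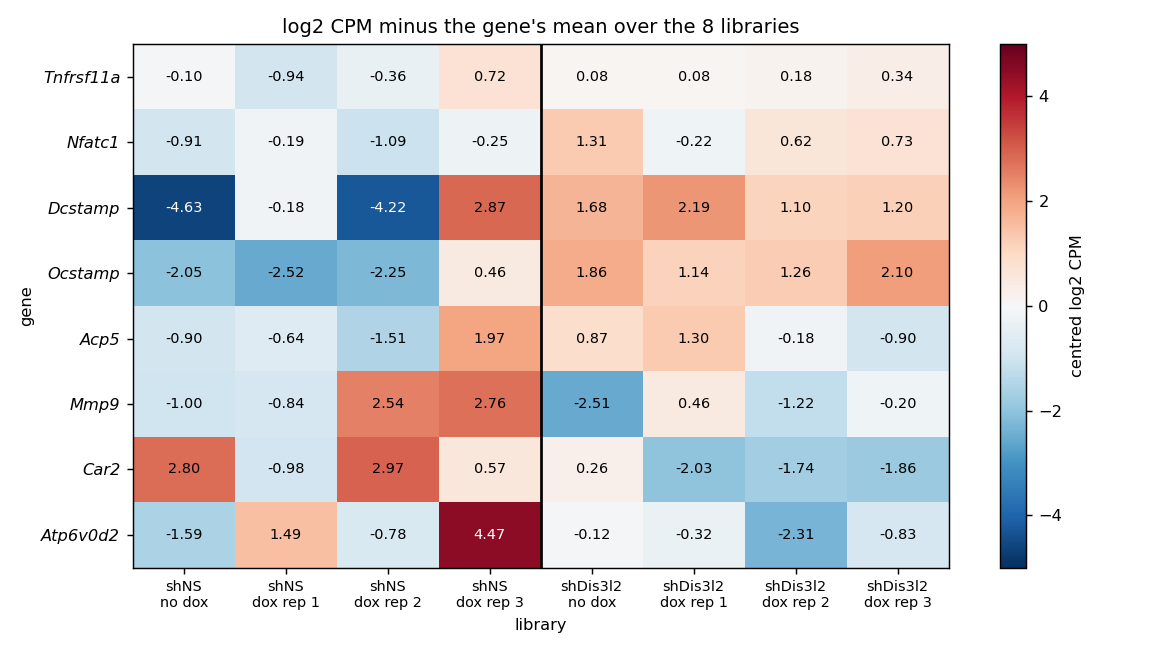
Log2 CPM (prior count 2) of each gene minus its mean over the 8 libraries, with 1 column for each library and 1 row for each gene. Red is above the gene's mean and blue below it. Dcstamp and Car2 have opposite colours in untreated shNS and shNS replicate 2, and the 3 shDis3l2 doxycycline columns span a narrower range than the 3 shNS ones for 7 of the 8 genes.

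**Figure D4:**
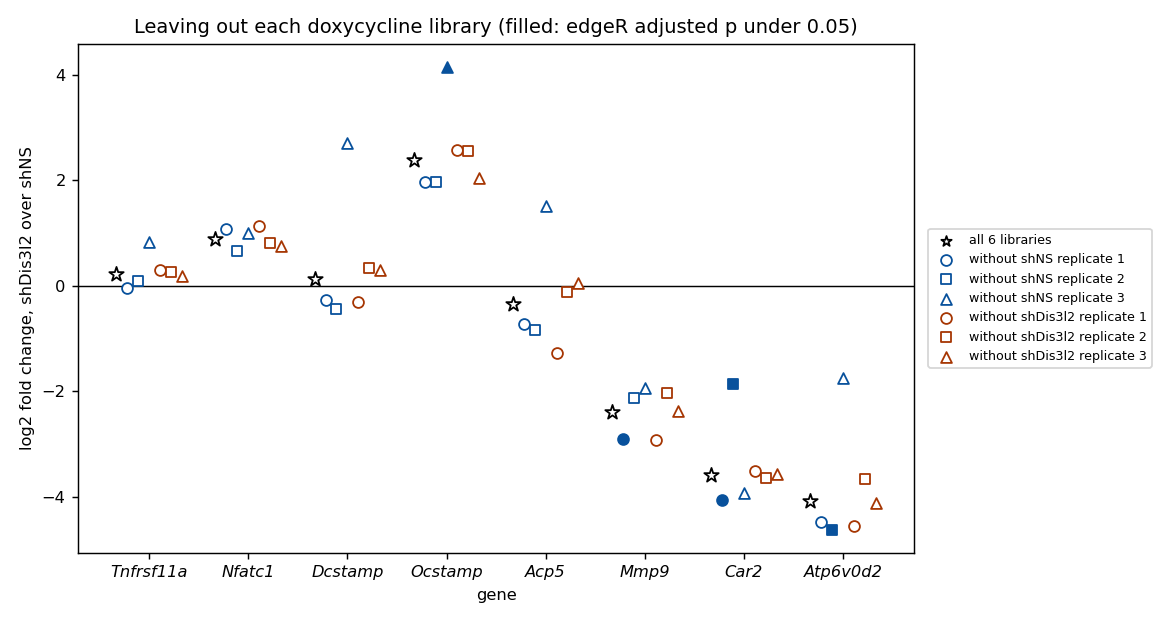
Log2 fold change of shDis3l2 over shNS with doxycycline for each gene, with all 6 libraries (stars) and with each library left out in turn. Filled symbols passed an edgeR adjusted p of 0.05. Dcstamp moves between -0.45 and 2.7 and Acp5 between -1.28 and 1.52, while Ocstamp stays between 1.97 and 4.14.

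Doxycycline itself was compared within each line against the lone untreated library, which was assumed to vary like the others. In shNS the log2 fold changes with doxycycline were largest for Dcstamp (6.33), Atp6v0d2 (4.78) and Mmp9 (3.38), and were 1.74 for Acp5, 1.39 for Ocstamp, 0.46 for Nfatc1, 0.08 for Tnfrsf11a and -1.09 for Car2. Without shNS replicate 3 the values were 3.73 for Dcstamp and 2.42 for Atp6v0d2, and without shNS replicate 2 they were 6.89 and 5.32. None of the 8 passed edgeR's test (lowest adjusted p = 0.990), nor did any of 15250 genes (0.0%). At an unadjusted p under 0.05 there were 646 genes and 0 of the 8, and DESeq2 called 61 higher, 11 lower and 0 of the 8. Without shNS replicate 2, edgeR called 252 genes higher and 292 lower, Car2 among the latter, with a log2 fold change of -2.83 (adjusted p = 0.0344). The 2 libraries with the most Car2, shNS replicate 2 and untreated shNS, lie on either side of this comparison.

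In shDis3l2 the doxycycline fold changes were smaller for most of the 8, at 0.12 for Tnfrsf11a, -0.87 for Nfatc1, -0.10 for Dcstamp, -0.30 for Ocstamp, -0.51 for Acp5, -0.84 for Atp6v0d2, -2.13 for Car2 and 3.18 for Mmp9 on the log2 scale. Again 0.0% of genes passed edgeR's test, with 504 genes and 0 of the 8 at an unadjusted p under 0.05, and DESeq2 called 49 higher, 15 lower and 0 of the 8. The difference between the lines' doxycycline effects was -6.43 for Dcstamp and -5.63 for Atp6v0d2 on the log2 scale, and neither passed edgeR's test (adjusted p = 1.00 for both). Without shNS replicate 3 these differences were -3.84 and -3.28. That test called 0.0% of genes, with 577 genes and 0 of the 8 at an unadjusted p under 0.05, and DESeq2 called 9 higher, 25 lower and 0 of the 8.

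Other genes of the pathway were taken from lists by role, and their counts refer to shDis3l2 against shNS with doxycycline. There, rose and fell mean higher and lower in shDis3l2 than in shNS, and are not changes measured against untreated cells. None of the 13 list genes named in these paragraphs passed when shDis3l2 replicate 2 was left out, with edgeR adjusted p from 0.0555 for Atp6v1c1 to 0.174 for Cbl, though their directions stayed. Leaving out other libraries also ended calls: shNS replicate 1 for Gab2, Nfkb1, Syk, Pik3r1, Tfec and Cd81, shNS replicate 2 for Gab2, Nfkb1 and Cbl, and shNS replicate 3 for Pik3r1 and Cbl. Without shDis3l2 replicate 1, Gab2, Nfkb1, Blnk, Pik3r1, Tfec, Maf and Cd81 did not pass, and without shDis3l2 replicate 3 only Map2k6 and Atp6v1c1 did. In RANK signalling to NF-kB and MAP kinases, 2 of 21 tested genes rose and 2 fell, with a median log2 fold change of 0.08. Among all tested genes, 6.14% passed and 4.01% fell, the shares to set beside the counts of each list. Nfkb1, which encodes the NF-kB precursor p105, rose from 124 ± 23.7 to 219 ± 25.4 CPM (SD, n = 3 each, log2 fold change 0.83, edgeR adjusted p = 0.0379). Map2k6, a kinase gene upstream of p38, fell from 6.80 ± 1.87 to 0.223 ± 0.203 CPM (SD, n = 3 each, -4.86, edgeR adjusted p = 0.0106), and Gab2, an adaptor gene downstream of RANK, fell from 43.3 to 22.3 CPM (-0.96, edgeR adjusted p = 0.0367). Among ITAM and calcium signalling genes 0 of 16 rose and 2 fell (median -0.30). These were the kinase gene Syk, from 182 ± 21.5 to 87.0 ± 20.6 CPM (SD, n = 3 each, -1.06, edgeR adjusted p = 0.0275), and the adaptor gene Blnk, from 86.3 ± 21.1 to 39.8 ± 1.80 CPM (SD, n = 3 each, -1.11, edgeR adjusted p = 0.0174). Of 8 tested genes of the CSF1 axis, 0 rose and 1 fell (median 0.05), the PI3-kinase subunit gene Pik3r1, from 101 to 66.1 CPM (-0.62, edgeR adjusted p = 0.0310). Without doxycycline, the ratio of shDis3l2 over shNS (1 library each) was 1.61 for Nfkb1, 0.228 for Map2k6 and 0.551 for Gab2. It was 0.510 for Syk, 0.375 for Blnk and 0.758 for Pik3r1.

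Among transcription factors known to drive osteoclast differentiation, 0 of 18 rose and 1 fell. This was Tfec, a gene of the MITF family, which had a mean of 7.61 CPM in shNS and 0 counts in the shDis3l2 doxycycline libraries, at least 93.2-fold lower against a floor of 3 counts per library (edgeR adjusted p = 0.0216). Of 19 genes that restrain differentiation, 1 rose and 1 fell. Cbl, the gene of a ubiquitin ligase that acts on receptor signalling, rose from 247 to 398 CPM (log2 fold change 0.69, edgeR adjusted p = 0.0370). Maf, the c-Maf gene, had a mean of 2.81 CPM in shNS and 0 counts in shDis3l2 with doxycycline, at least 34.4-fold lower (edgeR adjusted p = 0.0243). Of 18 fusion, podosome and adhesion genes, 1 rose and 0 fell. The gene that rose was the tetraspanin gene Cd81, from 8.49 ± 4.36 to 30.5 ± 9.26 CPM (SD, n = 3 each, 1.85, edgeR adjusted p = 0.0477). Without doxycycline, the ratio of shDis3l2 over shNS (1 library each) was 1.71 for Cbl and 6.72 for Cd81. The median log2 fold change was 0.12 for the driving factors, 0.03 for the restraining genes and -0.02 for the fusion genes, beside -0.00 for all genes. Of all tested genes, 6.14% passed and 4.01% fell.

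Acid secretion and matrix degradation was the list with the most calls. Without counting the osteoclast genes above, 10 of its 25 tested genes fell and 0 rose, where 4.01% of all genes fell, and 23 of 25 had negative fold changes, with a median of -0.70 on the log2 scale. Atp6v1c1, a proton pump subunit gene, fell from 186 ± 44.0 to 69.8 ± 3.20 CPM (SD, n = 3 each, log2 fold change -1.41, edgeR adjusted p = 0.00913). Ostm1, the partner of the chloride transporter ClC-7, fell from 55.0 ± 4.04 to 32.6 ± 1.40 CPM (SD, n = 3 each, -0.75, edgeR adjusted p = 0.0157), and the lysosomal protease gene Ctsb fell from 2591 ± 642 to 911 ± 240 CPM (SD, n = 3 each, -1.51, edgeR adjusted p = 0.0205). Of 12 tested proton pump subunit genes all 12 had negative fold changes and 5 fell. Without doxycycline the acid secretion and matrix degradation list summed to 9120 CPM in shNS and 2988 CPM in shDis3l2, 1 library each. With it, the list summed to 5872, 10756 and 9042 CPM in shNS and 4403, 3191 and 3426 CPM in shDis3l2. Its median log2 doxycycline effect was 0.25 within shDis3l2 and 0.04 within shNS. Macrophage lysosomes use the same pump and proteases. Of the 10 macrophage markers 2 fell, Mrc1 and Adgre1, and 0 rose. Fold changes were positive for 6 of these markers and negative for 4, with a median of 0.16 on the log2 scale. The number of falling genes in the list was 13 and 8 without shNS replicates 1 and 2, 5 without shNS replicate 3, and 4, 0 and 1 without shDis3l2 replicates 1, 2 and 3.

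Of the 8 mature osteoclast markers listed, 6 were tested, and 5 of these are genes described above (Acp5, Mmp9, Dcstamp, Ocstamp and Atp6v0d2). The remaining tested marker, and the one that fell, was Ctsk, which is also among the 10 falling genes of the acid secretion and matrix degradation list. Ctsk is the gene of cathepsin K, the main collagen-degrading protease of osteoclasts, and was picked out after its values were seen. It had 8.47, 11.4 and 39.6 CPM in the shNS doxycycline libraries and 0.663, 0.0584 and 0.0295 CPM in the shDis3l2 ones. The groups did not overlap, and the log2 difference was -6.18 (SE 1.16, edgeR adjusted p = 0.0359). Without shNS replicate 3 its adjusted p was 0.0508, and without shDis3l2 replicates 2 and 3 it was 0.169 and 0.134 (edgeR). Without doxycycline Ctsk had 3.32 CPM in shNS and 0.153 CPM in shDis3l2. Itgb3, the gene of the integrin that attaches osteoclasts to bone, was also chosen after its values were seen. It had 12.9 CPM in shNS replicate 2 and 11.3 CPM in untreated shNS, and at most 0.252 CPM in the other 6 libraries. The osteoclast markers therefore differed in where they were high: Ocstamp in all shDis3l2 libraries, Ctsk in all shNS libraries, and Itgb3 in the 2 shNS libraries in which Dcstamp was lowest.

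**Figure D5:**
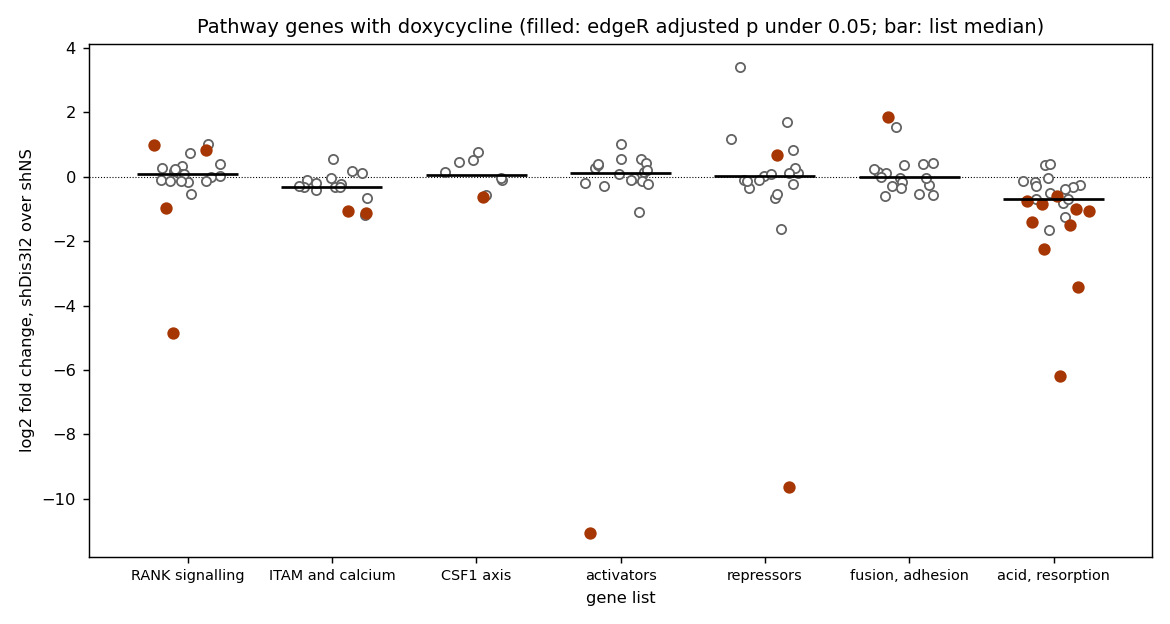
Log2 fold change of shDis3l2 over shNS with doxycycline for each tested gene of the 7 pathway lists, which hold none of the 10 osteoclast genes. Filled points passed an edgeR adjusted p of 0.05 and bars are list medians. The bar of the acid and resorption list lies at -0.70 with 10 filled points, all below 0, and the lowest 2 filled points of the plot are Tfec and Maf, whose fitted values depend on the prior count because shDis3l2 had 0 counts.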

How the data were processed

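Total RNA of RAW264.7 cells was sequenced from a stranded, ribosomal RNA-depleted library kit as paired reads, per the labels' protocols. Trimming, alignment and quantification tools named in the submitters' processing notes are cutadapt, STAR 2.7 and RSEM, beside the builds GRCm38 and mm10. For the counting, the annotation release and strand are not given in the sources used. The authors deposited expected counts per gene, not normalized. These were rounded, which changed 4.68 to 5.24% of values in a library. RSEM shares reads among genes with common sequence, so values of overlapping genes are estimates.

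Lines and treatments were compared by edgeR's quasi-likelihood test (edgeR 4.0.16, R 4.3.3; filterByExpr with a minimum count of 10, TMM, robust, two-sided, Benjamini-Hochberg over all genes tested, threshold 0.05), on the 6 doxycycline libraries for the lines and on all 8 libraries as 4 groups for doxycycline. Exact permutation tests (scipy 1.17.1) stand beside single genes where given. Floors are 3 counts per library and intervals are 95% binomial (Clopper-Pearson). Levels between genes were divided by annotated exon length (GENCODE release M21). The fit of the 6 doxycycline libraries was tested on simulated data, drawn with 1 spread setting for all genes. Changes were planted only in genes with ample counts. It therefore says nothing on genes as low or as widely spread as several of the 10. The fits of all 8 libraries were not tested in this way.

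Alternatives were DESeq2 1.42.0, limma-voom (limma 3.58.1), other scalings and filters, other designs and leaving out each library. Named genes are the 10 osteoclast genes, Dis3l2 and, in each pathway list, up to 3 genes with the smallest adjusted p under 0.05. The 10 genes and all lists were chosen with earlier results of these data known.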

Additional observations from a re-analysis of the deposited data

How the results depend on the processing

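Between the lines with doxycycline, edgeR called 293 genes higher and 552 lower in shDis3l2. DESeq2 called 644 and 1104, with 5 of the osteoclast genes, and an additive fit of all 8 libraries called 533 and 947. With the replicate block the counts were 132 and 289, with 2 falling genes in the acid secretion and matrix degradation list in place of 10. Same-numbered libraries did not deviate together (r = -0.12, 0.02 and -0.01 over 15250 genes), so the numbers are not taken as pairs. Leaving out 1 library gave 74 to 504 genes higher and 129 to 653 lower, 0 to 2 of the osteoclast genes and 0 to 13 falling genes in the acid list. All 13 list genes named, Dis3l2 and Ctsk kept their direction when a library was left out, and each lost its call in at least 1 of the 6 fits. For doxycycline in shNS, leaving out 1 library gave 0 to 252 genes higher and 0 to 292 lower, with 0 to 1 osteoclast genes. No low-count filter gave 2 higher, limma-voom 1 lower, and DESeq2 61 and 11. For doxycycline in shDis3l2 DESeq2 called 49 and 15. For the difference, DESeq2 called 9 and 25, no filter gave 2 lower, and leaving out 1 library gave 0 to 52 higher and 0 to 69 lower.

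The sign of the line difference turned for Acp5 with limma-voom (0.20), the replicate block (0.30) and the additive fit (0.16), and ran from -1.28 to 1.52 when a library was left out. It ran from -0.046 to 0.82 for Tnfrsf11a and from -0.45 to 2.7 for Dcstamp. The doxycycline effect in shNS was -0.094 for Tnfrsf11a with limma-voom, and leaving out a library gave -0.53 to 0.38 for it, -0.14 to 2.22 for Acp5, -0.38 to 1.84 for Ocstamp, 3.73 to 6.89 for Dcstamp and 2.42 to 5.32 for Atp6v0d2. In shDis3l2 it gave -0.53 to 0.10 for Dcstamp. The difference between the effects was 0.16 for Mmp9 with limma-voom, and ran from -0.26 to 0.65 for Tnfrsf11a, -2.15 to 0.079 for Ocstamp, -0.72 to 0.28 for Mmp9, -1.55 to 0.69 for Car2, -6.99 to -3.84 for Dcstamp and -6.16 to -3.28 for Atp6v0d2. These are log2 values, and the cause was not tested. Depth left Oscar and Calcr at 0 or 1 count a library, and Ocstamp had 9 and 12 counts in shNS replicates 1 and 2.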
